A study of Mus musculus with 18 samples.

Results

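The 40 genes examined here are 22 markers of neuronal identity and 18 genes that neuronal activity switches on. They were taken by name from the RefSeq annotation of mouse assembly GRCm38.p6 (mm10), and all 40 were found among its 21887 protein-coding genes. Binding of the transcription factor ATF4 was mapped by chromatin immunoprecipitation and sequencing in primary immature neurons of mouse embryos at embryonic day 14, which had been in culture for 2 days. The control neurons were untreated, and the other neurons were given 10 mM 2-deoxyglucose (2-DG), a glucose analogue that blocks glycolysis, for 6 h. Genotype, strain and sex are not given in the sources used here. The comparison asks which sites carry ATF4 after 2-DG and not in untreated neurons. Of 18 samples, 10 had a list of peaks, and 4 control and 4 2-DG lists, each from 1 immunoprecipitated sample, were compared.

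The lists held 3461 to 8202 peaks in control and 5856 to 15240 after 2-DG, the last of these in 2-DG replicate 1. They carry no read counts, so depth is unknown and a missing peak means that none was called. Control samples are labelled as having no antibody, but the study design lists the ATF4 antibody for both treatments, so 2-DG and the use of the antibody cannot be told apart in the comparison. The labels do not tie lists to separate cultures, and p-values measure the spread between lists, which may be technical. As a reference, 26, 26, 24 and 24 of 30 known ATF4 target genes had an end peak, one that comes within 2000 bp of either end of the gene, in 2-DG replicates 1 to 4, against 10, 1, 2 and 0 in control replicates 1 to 4. Control replicate 1 thus held more of these genes than the other control lists.

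ATF4 is the leucine zipper transcription factor of the integrated stress response. With C/EBP partners it binds composite sites that join a C/EBP part to a part of the cyclic AMP response element (CRE). Neuronal identity genes encode the cytoskeleton, RNA-binding proteins, synaptic vesicle proteins, lineage transcription factors and transmitter enzymes or transporters that set neurons apart from other cells. Activity-regulated genes, many of them immediate early genes, are induced within minutes of calcium entry, in large part through the factor CREB at CRE sites. ATF4 and CREB both belong to the basic leucine zipper family.

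The start region of Tubb3 carried the one peak of these 40 genes that lay at a gene end in each of the 4 2-DG lists, and its sequence is shown first because the results turn on it. The 250 bases before the RefSeq start site are at chr8:123411303-123411552, plus strand (GRCm38.p6, sequence from RefSeq). The windows of Fos (chr12:85473640-85473889, plus strand), Dusp1 (chr17:26508473-26508722, minus strand) and Syn1 (chrX:20920919-20921168, minus strand) are shown beside it as CRE-bearing promoters without a peak in any of the 8 lists. Each sequence runs 5′ to 3′ on the strand of its gene and ends at the base before the start site. Capitals mark matches to the motifs searched on both strands, which were TGATGNAA (the core of an ATF4-C/EBP composite site), TGACGTCA (the full CRE), TGACG (a short CRE, also contained in the full one) and TGANTCA (the AP-1 site).
Tubb3: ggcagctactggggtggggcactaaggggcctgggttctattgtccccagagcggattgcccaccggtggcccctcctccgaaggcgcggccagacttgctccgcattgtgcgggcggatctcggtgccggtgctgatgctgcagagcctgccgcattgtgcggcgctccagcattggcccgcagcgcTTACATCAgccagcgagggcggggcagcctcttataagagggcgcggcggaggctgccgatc
Fos: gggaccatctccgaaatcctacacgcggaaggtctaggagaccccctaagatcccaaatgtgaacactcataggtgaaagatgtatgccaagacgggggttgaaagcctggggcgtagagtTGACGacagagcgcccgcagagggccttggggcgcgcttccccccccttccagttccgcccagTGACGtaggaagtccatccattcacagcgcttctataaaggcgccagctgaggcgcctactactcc
Dusp1: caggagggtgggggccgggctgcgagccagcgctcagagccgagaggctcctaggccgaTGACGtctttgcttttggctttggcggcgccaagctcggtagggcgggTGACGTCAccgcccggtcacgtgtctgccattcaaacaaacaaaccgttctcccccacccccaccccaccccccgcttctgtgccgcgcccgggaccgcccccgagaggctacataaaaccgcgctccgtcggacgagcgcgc
Syn1: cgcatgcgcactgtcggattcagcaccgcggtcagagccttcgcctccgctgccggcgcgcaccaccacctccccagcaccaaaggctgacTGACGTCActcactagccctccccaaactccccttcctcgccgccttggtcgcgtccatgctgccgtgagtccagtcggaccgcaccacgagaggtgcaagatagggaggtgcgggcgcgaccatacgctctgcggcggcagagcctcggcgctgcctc
In Tubb3 the capitals are a composite core on the opposite strand, at -62 to -55 from the start site. In Fos they are 2 short CREs, the nearer one at -66 to -62. In Dusp1 a full CRE lies at -143 to -136 and a short one at -191 to -187, and in Syn1 at -159 to -152.

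Tubb3, the gene of the neuronal tubulin beta III, had a peak just before or across its start site in each of the 4 2-DG lists and in 0 control lists. The gene lies at chr8:123411553-123422015. Its peaks had a fold over local background, as the authors' peak caller gave it, of 11.1, 9.96, 6.36 and 4.65 in 2-DG replicates 1 to 4. In the 4 control lists no peak was called within 20 kb of the gene. The presence of the peak therefore did not overlap between the groups. Within their own lists, 92.9%, 88.5%, 79.3% and 39.7% of peaks had a lower fold. The peak was high in the ranking of 2-DG replicates 1 to 3, and in replicate 4 it lay below the middle of the list.

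Peak summits at Tubb3 lay at -73, -87, -124 and -87 from the start site in 2-DG replicates 1 to 4. The peaks of replicates 1 and 2 crossed the start site, and those of replicates 3 and 4 ended at -28 and -33. The stretch shared by all 4 peaks was 101 bp long, from -133 to -33, and it contained the composite core in the sequence above. The merged region, at chr8:123411236-123411663, was 428 bp wide. It also ended 492 bp from an end of Mc1r, the melanocortin 1 receptor gene, so the same peaks count as end peaks of both genes. Over all protein-coding genes, 124 of 21887 (0.567%) had an end peak in each of the 4 2-DG lists but in 0 control lists, and Tubb3 was the 1 of the 40 that did. Fisher's exact test on lists with and without a peak gave 0.0286 for Tubb3, the smallest p that 4 lists against 4 allow, and an adjusted p of 1 over all genes. No gene could pass, and 124 genes had an unadjusted p under 0.05. Without the weaker peaks, at a fold of at least 5 or a -log10 q of at least 5, Tubb3 kept its peak in 3 of 4 2-DG lists, a difference of 75 percentage points from control in place of 100.

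**Figure D1:**
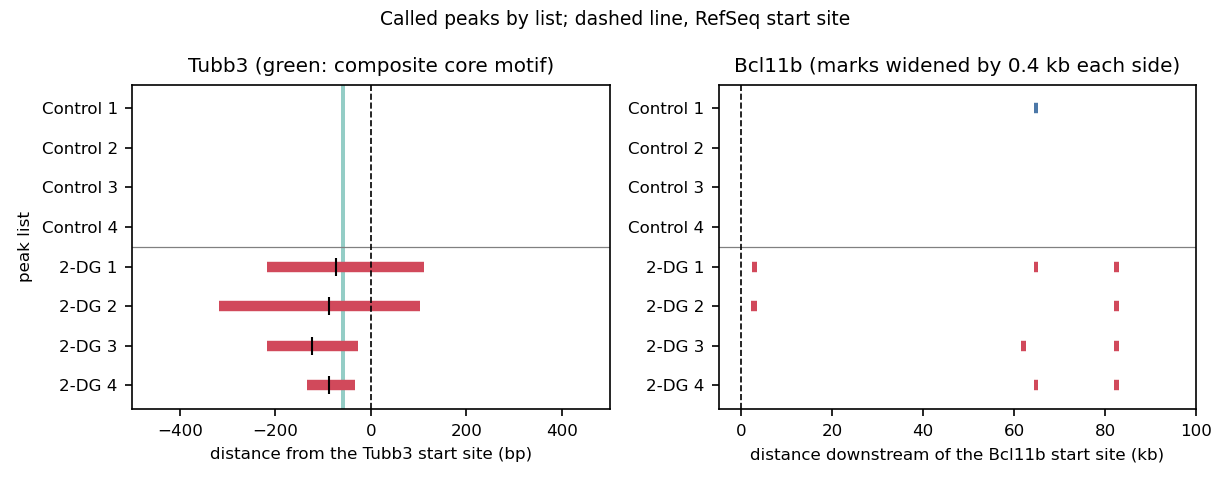
Called peaks at Tubb3 (left, in bp from the RefSeq start site, dashed) and at Bcl11b (right, in kb downstream of its start site, dashed), 1 row for each of the 4 control and 4 2-DG lists. At Tubb3, bars are peak intervals, black ticks are summits, and the green band is the composite core at -62 to -55. At Bcl11b, bars are widened on each side beyond the peak intervals, and summits are not marked. The Tubb3 bars of the 4 2-DG lists share the stretch from -133 to -33, and the control rows are empty there.

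Bcl11b, which encodes CTIP2, a transcription factor of corticospinal and striatal neurons, held the other region that was called in each 2-DG list but in 0 control lists. This region was inside the gene, at chr12:107920692-107921087, 10289 bp from the lower-coordinate end and 82525 bp downstream of the start site by its middle. Its place relative to exons was not analysed here. Its fold was 11.4, 12.1, 4.89 and 5.31 in 2-DG replicates 1 to 4. These peaks stood above 93.3%, 91.9%, 41.0% and 61.2% of their lists. As at Tubb3, replicates 1 and 2 gave the stronger calls. At a fold of at least 5 or a -log10 q of at least 5 the region was left in 3 of 4 2-DG lists, a difference of 75 percentage points in place of 100.

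A further Bcl11b region, at chr12:108000403-108000791, had a fold of 8.35 in 2-DG replicate 1 and 5.34 in replicate 2 and was not called in the other 6 lists. It lay 2817 bp downstream of the start site by its middle. A region at chr12:107938452-107938717 was called in control replicate 1 with a fold of 4.73, and in 2-DG replicates 1 and 4 with folds of 3.71 and 4.31. Because of that control peak, Bcl11b as a whole gene had peaks in 4 of 4 2-DG lists against 1 of 4 in control (Fisher's exact p = 0.143, adjusted p = 1 over all genes). Control replicate 1 is also the control list with 10 of the 30 known ATF4 targets, and the part of that in the Bcl11b call was not tested. Over the merged regions of all 8 lists, 616 of 35717 (1.72%) were in each 2-DG list but in 0 control lists. At the 40 genes it was 2 of 60 regions (3.33%), those at Tubb3 and Bcl11b.

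Among the other cytoskeleton genes, Map2, Dcx and Gap43 had peaks inside the gene in 2-DG lists. Map2, the gene of a dendritic microtubule-binding protein, had a region at chr1:66321653-66321786 with a fold of 6.80 in 2-DG replicate 1 and 4.62 in replicate 2. In 2-DG replicate 3 a separate Map2 peak with a fold of 3.91 was at the lowest fold of its list. Dcx, encoding doublecortin, a microtubule protein of migrating neurons, had a region at chrX:143902436-143902612 with a fold of 6.80 in 2-DG replicate 1 and 4.62 in replicate 2. It also had single peaks elsewhere in the gene in 2-DG replicates 2 and 3, each with a fold of 3.91. For both genes this made 3 of 4 2-DG lists against 0 of 4 in control (Fisher's exact p = 0.143, adjusted p = 1 over all genes), but no more than 2 lists shared a position. The difference of 75 percentage points was 25 for each gene at a fold of at least 5 and at a -log10 q of at least 5.

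Gap43, the gene of a growth cone protein, had a region inside the gene at chr16:42263187-42263512. Its fold was 4.95 in 2-DG replicate 1 and 3.56 in replicate 2, the latter at the lowest fold of its list. A peak 19 bp outside the higher-coordinate end of Gap43 was called in 2-DG replicate 1 alone, with a fold of 4.02. The difference of 50 percentage points at an end or inside Gap43 was 0 at a fold of at least 5. Stmn2, encoding the microtubule regulator stathmin 2, and the neurofilament genes Nefl and Nefm had no peak within 20 kb in any of the 8 lists.

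Rbfox3, which encodes the nuclear antigen NeuN, was the one gene of the 40 with peaks in all 8 lists, and these were scattered. The gene spans 421838 bp. It held 6, 3, 2 and 2 peaks in 2-DG replicates 1 to 4 and 1, 1, 7 and 3 in control replicates 1 to 4. The groups overlapped, and the longest list of each treatment held the most. Per 100 kb this was 0.770 ± 0.449 (SD, n = 4) after 2-DG and 0.711 ± 0.671 (SD, n = 4) in control, against 0.355 ± 0.181 and 0.209 ± 0.0912 (SD, n = 4 each) over all protein-coding genes. The region in most lists, at chr11:118818276-118818624, was called in 2 2-DG and 2 control lists with folds between 4.24 and 5.38. Rbfox3 was listed in equal shares of both treatments (a difference of 0), but with the 3461 highest peaks of each list the difference was -75 percentage points, 2-DG minus control. Elavl4, an RNA-binding protein gene of the Hu family, had peaks in control replicates 3 and 4 and in no 2-DG list. Its relative Elavl3 had 1 peak, in 2-DG replicate 1, with a fold of 3.40, the lowest of that list.

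**Figure D2:**
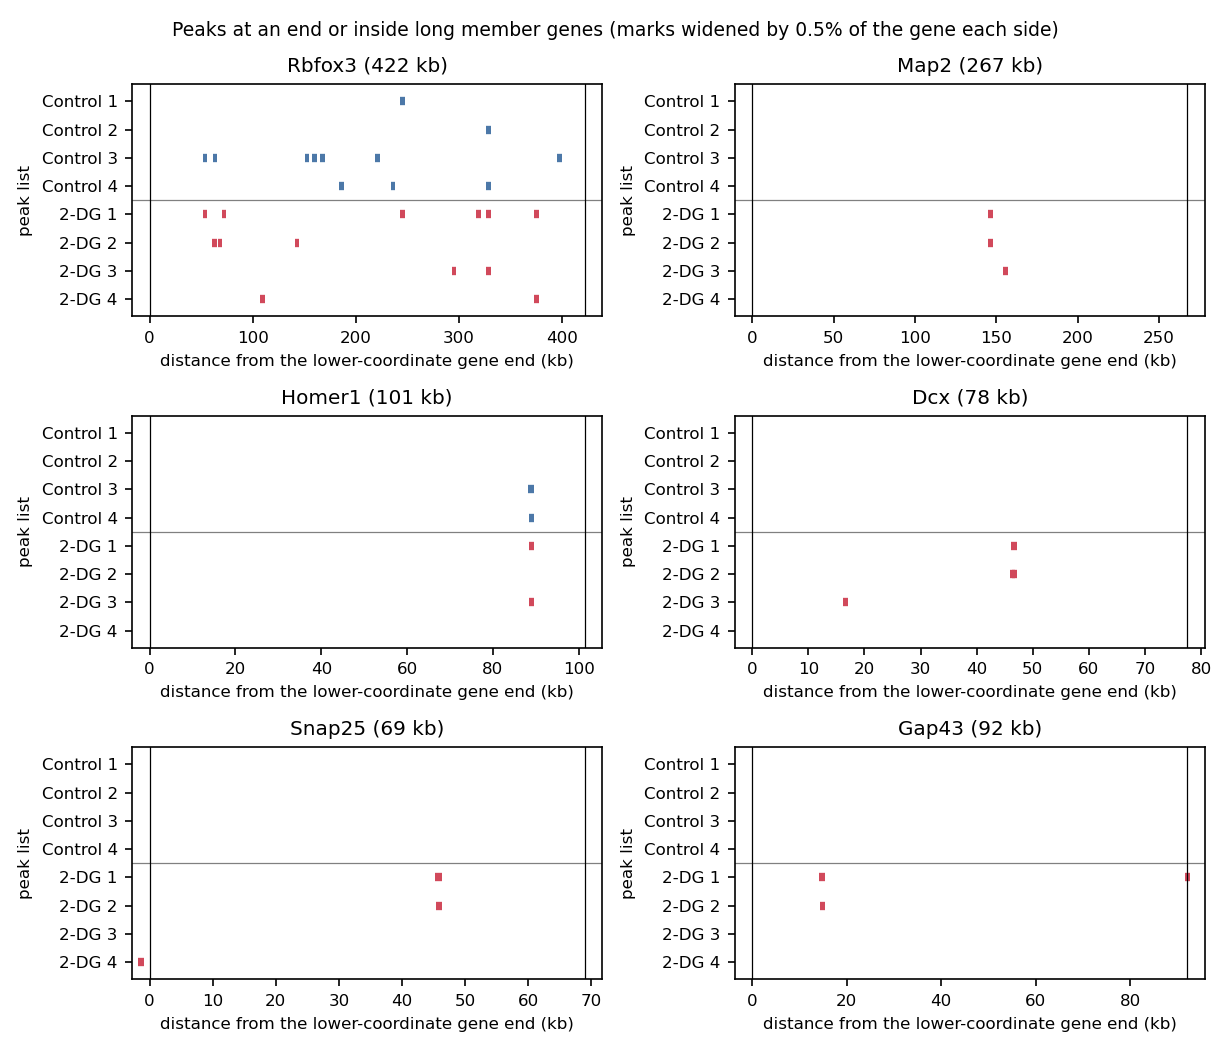
Peaks at an end or inside 6 long genes, in kb from the lower-coordinate gene end (black lines mark both ends), 1 row for each list, with control in blue and 2-DG in red. Rbfox3 has marks in all 8 rows at many positions, Homer1 has 1 position called in 2 lists of each treatment, and Map2, Dcx, Snap25 and Gap43 have marks in 2-DG rows.

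Of the synaptic vesicle genes, Snap25, encoding a SNARE protein of vesicle fusion, had a region at chr2:136759109-136759485 inside the gene. Its fold was 7.11 in 2-DG replicate 1 and 4.98 in replicate 2. A peak 1306 bp outside the lower-coordinate end was called in 2-DG replicate 4 with a fold of 3.65, the lowest of that list. Over end and inside together the difference of 75 percentage points between treatments was 25 at a fold of at least 5 and at a -log10 q of at least 5. Syn1, which carries the full CRE shown above, and Syp, encoding synapsin I and synaptophysin, had no peak within 20 kb in any list. Neurod1 and Tbr1, lineage transcription factor genes, had none either. Neurod2 and Neurod6 had none at an end or inside, and the calls within 20 kb of Neurod2 were in 1 2-DG and 2 control lists. The transmitter genes Gad1 and Gad2, of GABA synthesis, and Slc17a6 and Slc17a7, of vesicular glutamate transport, had no peak within 20 kb in any of the 8 lists.

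The activity-regulated genes had 23 peaks within 20 kb over the 8 lists, 11 of them in 2-DG replicate 1. At gene ends, 3 of 18 were called in that list and 0 in each of the other 7. They were Npas4, a neuron-specific activity-dependent transcription factor gene, Arc, a regulator of synaptic receptors, and Per1, a clock gene that CREB induces. Their folds were 4.02, 4.02 and 5.88, above 25.7%, 25.7% and 75.6% of that list. The summits at Npas4 and Per1 lay 7151 and 11876 bp downstream of the nearest RefSeq start site, so neither was a peak at a start site. For Arc no start site was given. The Per1 peak lay 1967 bp outside the gene, just inside the limit of 2000 bp. The Nr4a3 region, 2150 bp outside its gene and just beyond the limit, was called in 2-DG replicates 1 and 4 with folds of 3.40 and 4.65. By comparison, 5.57% of all protein-coding genes had an end peak in 2-DG replicate 1, which has the most peaks of the 8 lists.

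Fos, Fosb and Junb, the genes of AP-1 subunits, had no peak within 20 kb in any list. The same held for Egr3, for Btg2, an antiproliferative gene, and for Gadd45b, which takes part in DNA demethylation. Egr1 and Egr2, zinc finger genes of the early response, had 1 peak each within 20 kb, in 2-DG replicate 1 and control replicate 4. Nr4a1, an orphan nuclear receptor gene, had 1 peak inside the gene, in 2-DG replicate 1, with a fold of 3.40, the lowest of its list. Its relative Nr4a2 had 1 inside the gene in the same list, with a fold of 4.33. With the 20 kb on either side counted, Nr4a1 had peaks in 2 2-DG lists and 1 control list. Crem, which encodes a CRE-binding modulator, had 2 peaks inside the gene in control replicate 3, the higher with a fold of 6.08.

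Homer1, encoding a postsynaptic scaffold, had 1 region inside the gene, at chr13:93392524-93392871, in both treatments. Its fold was 4.64 and 4.40 in 2-DG replicates 1 and 3 and 5.61 and 4.95 in control replicates 3 and 4. It was thus called in 2 of 4 lists of each treatment, and the groups did not differ in number of lists. Ier2, an immediate early gene, had a region 18956 bp outside the gene, with a fold of 9.28 in 2-DG replicate 1 and 4.62 in replicate 2. That region lay 1806 bp from an end of Cacna1a, a calcium channel gene, and is nearer to it than to Ier2. Dusp1, a phosphatase gene that limits MAP kinase signalling, had 1 peak within 20 kb, in 2-DG replicate 3, at the lowest fold of the list.

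**Figure D3:**
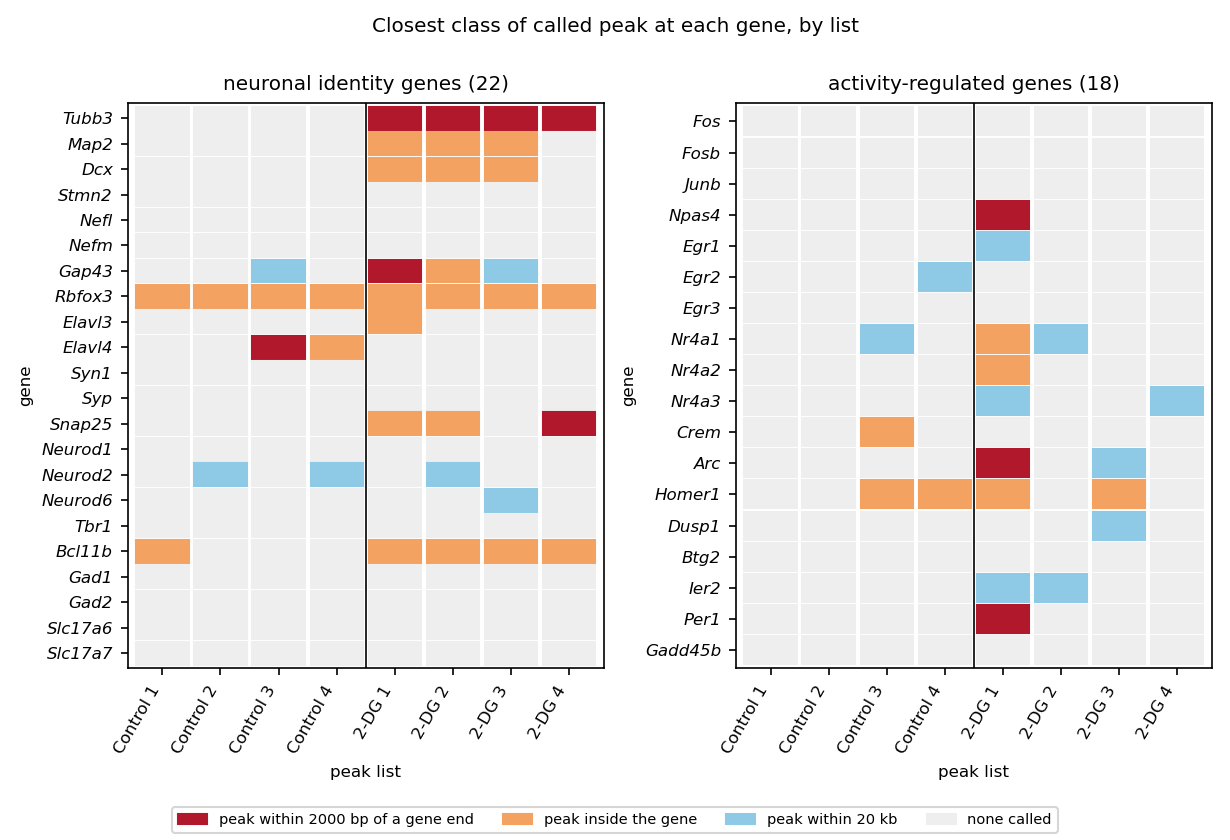
Closest class of called peak at each of the 22 neuronal identity genes (left) and 18 activity-regulated genes (right), by list (columns, 4 control and 4 2-DG). Dark red is an end peak (2000 bp or less from an end), orange a peak inside the gene, blue a peak within 20 kb, and grey no call. Tubb3 is dark red in all 4 2-DG columns, and the activity-regulated genes are dark red 3 times, all in 2-DG replicate 1.

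The sequences before the start sites were set against the peaks. RefSeq start sites were given for 30 of the 40 genes, in 41 windows of 250 bases. A peak overlapped 1 of the 41 windows, that of Tubb3, after 2-DG, and 0 of them in control. The share of all 21263 windows with a peak was not counted, so these counts have no background. The composite core TGATGNAA was in the same 1 window (2.44%), against 676 of 21263 windows (3.18%) of all protein-coding genes and 9 of 24 known ATF4 targets with a window (37.5%). The short CRE TGACG was in 12 of 13 activity-regulated genes (92.3%), among them Fos, Fosb, Junb, Npas4, Nr4a1, Nr4a2 and Nr4a3, and in 5 of 17 neuronal identity genes (29.4%). Over all protein-coding genes it was in 22.6%. A gene counts if any of its windows has the motif. By window it was 15 of 19 for activity-regulated genes (78.9%), against 20.2% of all windows. TGACG contains the bases CG, and windows of the 40 genes had a median GC of 61.2% and 16 CGs, against 55.6% and 10 over all. The part of this in the TGACG shares was not tested. The full CRE was in Btg2, Dusp1 and Syn1, 3 of 30 genes (10%), against 2.20% of all. TGANTCA was in 0 of the 41 windows and in 6.13% of all. No window of an activity-regulated gene, with or without a CRE, overlapped a peak in any list. End peaks were called at only 1.25% to 5.57% of all protein-coding genes in a list. The 0 of 19 windows is therefore not read as a result about these genes or their CREs. These matches describe letters in a 250-base window, and sites farther away were not searched.

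Counted at an end or inside the gene, neuronal identity genes with a peak numbered 8, 7, 5 and 4 of 22 in 2-DG replicates 1 to 4 and 2, 1, 2 and 2 in control replicates 1 to 4. The groups did not overlap, with 6 ± 1.83 (SD, n = 4) against 1.75 ± 0.5 (SD, n = 4). No p is given for a count over these genes, since they were chosen with results of these data known. Over all protein-coding genes, 19.1%, 11.5%, 9.59% and 8.64% had such a peak in 2-DG replicates 1 to 4, against 5.05%, 5.04%, 10.9% and 8.74% for control replicates 1 to 4, so those groups did overlap. For activity-regulated genes it was 6, 0, 1 and 0 of 18 against 0, 0, 2 and 1. Of the 40 genes 1, Tubb3, had a peak at an end or inside in each 2-DG list but in 0 control lists (background 1.09%), and again 1 within 20 kb (background 1.51%). Without 2-DG replicate 4 the count at an end or inside was 3, with Map2 and Dcx added. It was 2 without 2-DG replicate 3, when Snap25 was added, and 2 without control replicate 1, when Bcl11b was. Leaving out a list makes the rule easier to meet for any gene, and the share of all genes under it was not computed.

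The counts were read against the same counts over all protein-coding genes. An end peak in at least 1 2-DG list was called at 6 of the 40 genes (15%, background 8.16%), and in at least 1 control list at 1 (2.5%, background 4.88%). In at least 3 2-DG lists it was called at Tubb3 alone (2.5%, background 1.81%), and in at least 3 control lists at 0 (background 0.475%). With the inside of the gene counted, 14 had a peak in at least 1 2-DG list (35%, background 25.2%) and 5 in at least 1 control list (12.5%, background 19%). In at least 3 2-DG lists it was 6 (15%, background 7.05%), all of them neuronal identity genes, namely Tubb3, Map2, Dcx, Snap25, Bcl11b and Rbfox3. In at least 3 control lists it was 1, Rbfox3 (2.5%, background 2.65%). Within 20 kb, 20 had a peak in at least 1 2-DG list (50%, background 43.7%) and 9 in at least 1 control list (22.5%, background 35.1%). In at least 3 2-DG lists it was 7, with Gap43 added (17.5%, background 12%), against 1 in at least 3 control lists (2.5%, background 4.83%). These windows and thresholds are nested, and several of the counts rest on 1 gene or 0 and lie near their background. No peak in any of the 8 lists was found at an end for 33 (82.5%, background 89%), at an end or inside for 24 (60%, background 68%), and within 20 kb for 17 (42.5%, background 44.9%). In the reverse pattern, 4 control lists and 0 2-DG lists, were 0 of the 40 for each window, where the background was 0%, 0.00457% and 0.0183%. An unadjusted Fisher's exact p under 0.05 was reached by 1 of the 40, Tubb3, in each window, where the background was 0.567%, 1.09% and 1.53%.

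These counts were also set beside gene length and list length. The backgrounds above are over genes of all lengths. In any of the 8 lists, a peak at an end or inside was called at 10.6% of genes up to 10 kb. For genes over 100 kb it was 83.3%. Shares by length for at least 3 lists were not computed. Of the 22 neuronal identity genes, 10 are over 50 kb long, and of these 6, 6, 4 and 3 had a peak in 2-DG replicates 1 to 4, against 2, 1, 2 and 2 in control. Among the 4945 protein-coding genes over 50 kb, the share was 49.0%, 30.4%, 25.9% and 23.1% after 2-DG, against 13.1%, 13.1%, 30.4% and 23.9% in control. With the 3461 highest peaks of each list by q-value, neuronal identity genes with a peak numbered 5, 4, 3 and 1 after 2-DG and 2, 1, 2 and 1 in control, and the groups then overlapped. That limit fell among peaks of equal q-value and fold, 428 to 1457 in a list, whose order is arbitrary. With all tied peaks kept, the counts were 5, 5, 3 and 2 against 2, 1, 2 and 2, and the Tubb3 and Bcl11b regions were each in 4 of 4 2-DG lists. Tied peaks were then left out of every list but control replicate 1, which holds 3461 peaks and was kept whole. The counts were 5, 3, 2 and 1 against 2, 1, 2 and 1, and each region was in 3 of 4. Neither region was in a control list under these settings. Without 2-DG replicate 1, the difference between treatments in genes of the 40 with a peak at an end or inside fell from 5.25 to 3.17 per list.

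**Figure D4:**
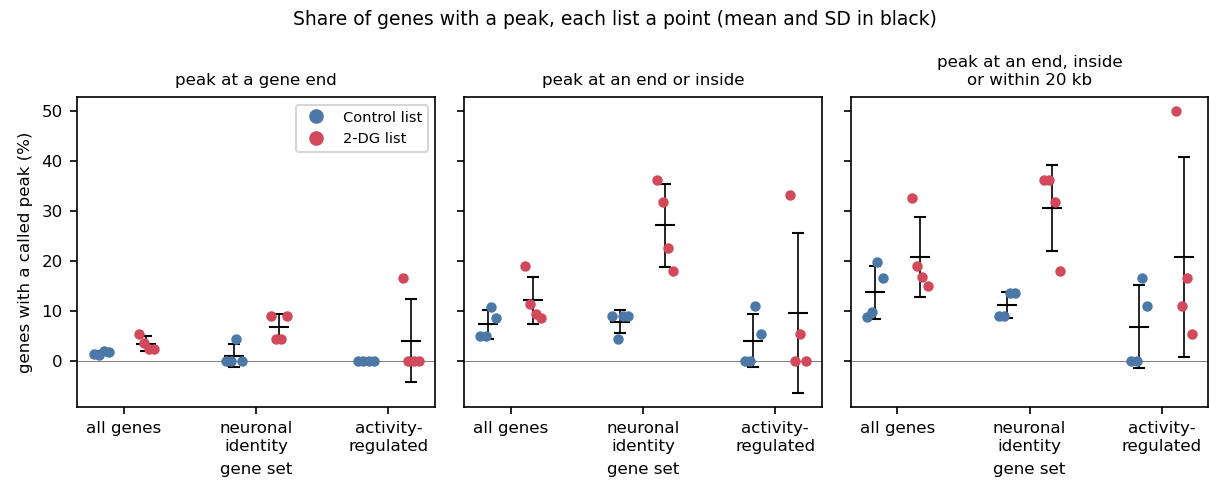
Percent of all protein-coding genes, of the 22 neuronal identity genes and of the 18 activity-regulated genes with a peak at a gene end (left), at an end or inside (middle), or also within 20 kb (right). Each point is a list (4 control in blue, 4 2-DG in red), and black bars give the mean and SD. At an end or inside, the neuronal identity points of the 2-DG lists (4 to 8 genes) lie above those of the control lists (1 to 2 genes), and a single 2-DG list holds 6 activity-regulated genes.

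Most regions at these genes were called in a single list, as were most regions of the genome. Of 60 merged regions, 7 were at a gene end, 37 inside and 16 within 20 kb. In 1 list only were 42 of them (70%), against 73.6% of all regions. In 2-DG lists only were 38 (63.3%), against 52.2% of all regions, and in control lists only 16 (26.7%), against 33.7%. The 87 peaks had a median fold of 4.62, and a median of 39.7% of the peaks in their lists had a lower fold. Of these, 11 peaks stood above at least 80% of their lists, at Tubb3, Bcl11b, Map2, Dcx, Snap25 and Ier2 in 2-DG replicates 1 or 2 and at Rbfox3 and Crem in control replicate 3. By this measure up to 20% of the peaks of any list stand as high, so 11 of 87 is no excess.

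**Figure D5:**
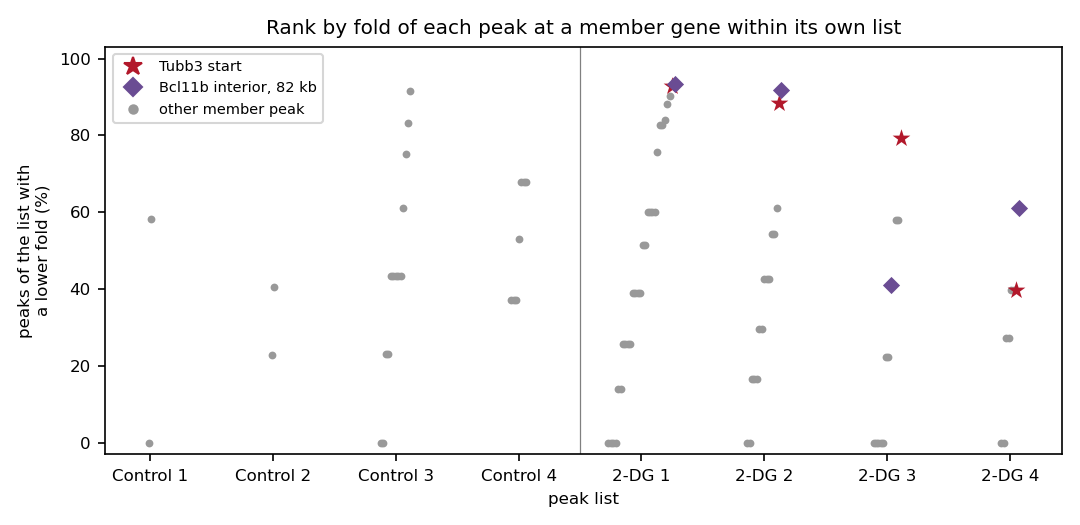
Rank of each peak at the 40 genes within its own list, as the percent of that list's peaks with a lower fold, for the 4 control and 4 2-DG lists. Each point is a peak, with the Tubb3 start as red stars and the Bcl11b region 82525 bp from the start as purple diamonds. In 2-DG replicates 1 and 2 both stand above at least 88.5% of the list, and in replicate 4 the Tubb3 peak stands above 39.7%.

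Related genes outside the 40 gave few recurrent end peaks. Of 45 other neuronal genes, 0 had an end peak in each 2-DG list but in 0 control lists, and of 44 other activity-regulated genes 0 did (background 0.567%), while 13 of the 30 known ATF4 targets did (43.3%). End peaks of the other neuronal genes numbered 5, 4, 1 and 1 in 2-DG replicates 1 to 4 and 1, 1, 2 and 0 in control replicates 1 to 4. At an end or inside, the other neuronal genes with a peak numbered 19, 17, 8 and 9 after 2-DG against 5, 6, 12 and 5 in control, and the groups overlapped. For the other activity-regulated genes end peaks numbered 4, 3, 0 and 2 against 1, 3, 1 and 0, and peaks at an end or inside 8, 7, 3 and 5 against 2, 3, 3 and 2. Which cells the cultures held was not analysed here. Of markers of other cell types, progenitor genes had 0 of 10 with an end peak in any list, and 0 of 10 at an end or inside. Over all protein-coding genes, 89% had no end peak in any list. Astrocyte, microglial and vascular markers had end peaks at 1 of 9 each and oligodendrocyte markers at 2 of 9, each in a single list. At an end or inside, microglial markers numbered 3, 2, 1 and 2 of 9 after 2-DG against 1, 2, 0 and 0 in control. Vascular markers numbered 3, 3, 2 and 2 against 2, 2, 2 and 2. Astrocyte markers numbered 2, 1, 3 and 0 against 0, 1, 1 and 2, and oligodendrocyte markers 1, 0, 0 and 1 against 0, 0, 0 and 3. P2ry12, a microglial marker picked after its values were seen, had one in 3 2-DG and 0 control lists, like Map2, Dcx and Snap25.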

How the data were processed

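Immunoprecipitated DNA from untreated and 2-DG-treated neurons was sequenced. The submitters' processing notes name BWA, Picard, MACS2, DiffBind and the build mm10, without versions or settings. Peak names within a deposited list all carry a single sample name. The deposited lists hold a fold enrichment over local background (a ratio), -log10 p and q values, and a whole-number score that was not used further. These values are the authors' own and serve here for ranking or filtering inside each list. Lists repeat an interval for each summit (431 to 1807 lines), and 1 peak per interval was kept, at its highest summit.

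Groups came from titles that matched the treatment label. In 4 samples these disagree, and the 2 of them with lists entered no comparison. The design states fewer replicates than there are lists. Inputs were not used here. Gene positions and start sites were from RefSeq GRCm38.p6. A peak was placed at a gene by an overlap of at least 1 bp with a window of 2000 bp around either end, the gene itself, or 20 kb on either side. An end can be a start or a finish. Lists with a peak were compared per gene by two-sided Fisher's exact tests with Benjamini-Hochberg adjustment over 21887 genes (Python 3.11.15, SciPy 1.17.1). Regions are the union of the 8 lists.

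The genes, lists, motifs and alternatives were chosen with earlier results of these data known. Values per list are given for genes with a region in at least 2 lists of a treatment at an end or inside, or 3 within 20 kb, which were 8 genes. Other genes of the 40 whose values are printed were chosen after their values were seen. Placement was tested on simulated peaks at genes far from any other gene, and 200 of 200 were assigned as planted. Some were planted outside every window, and genes with close neighbours were not simulated.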

Additional observations from a re-analysis of the deposited data

Results flagged for a closer look

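Of 20 groups of 4 lists screened, 6 held a list far from the others, where chance flags about 1 in 20. Most are small counts in which a single list differs, which always passes the limit. 2-DG replicate 1 stood apart in number of peaks (15240), in activity-regulated genes with an end peak (3) and in those with a peak at an end or inside (6). Control replicate 3 was the one control list with an end peak at any of the 40 genes (1), which is a neuronal identity gene (1), Elavl4. Control replicate 2 had fewer neuronal identity genes with a peak at an end or inside (1) than the other control lists.

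Another list carries 2-DG in its title and control in its description, and entered no group. It had end peaks at 2 of the 40 genes, Tubb3 and Npas4, where the highest control list had 1. Npas4 is the 1 activity-regulated gene among them, against 0 in the control lists. At an end or inside it held 6 genes (highest control list 4), of which 5 were neuronal identity genes (highest control list 2). Within 20 kb it held 9 (highest control list 6), of which 7 were neuronal identity genes (highest control list 3). In the 3 windows these are 5%, 15% and 22.5% of the 40. The background in that list was 2.93%, 11.1% and 20.4% of all protein-coding genes. The share within 20 kb lay near its background, and the other shares rest on 2 and 6 genes. None of the 3 shares is read as an excess. It held both regions found in all 4 2-DG and no control lists (2), with a fold of 3.82 at Tubb3 and 4.51 at Bcl11b. A list with the opposite mismatch, control in its title, held neither, and had no end peak at the 40 genes (background 1.44%).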

How the results depend on the processing

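Of the 40 genes, 1 had an end peak in each 2-DG list but in 0 control lists, and so at an end or inside, and within 20 kb. These 3 counts were each 0 at -log10 q of at least 5, at fold of at least 5 and with 3461 top peaks per list, and the count of 2 regions was 0, 0 and 1. The limit of 3461 splits tied peaks: with ties kept the counts were 1 and the regions 2, and with ties left out each was 0. Ties were not left out of control replicate 1, which holds 3461 peaks and was kept whole. The difference in genes per list (2-DG minus control) at an end or inside, 5.25, was 2.5 at -log10 q of at least 5, 1.75 at fold of at least 5 and 1.25 with equal numbers of peaks (1.5 with ties kept, 0.5 with ties left out). Within 20 kb it was 6.75, and 2.75 at -log10 q of at least 5, 2.25 at fold of at least 5 and 1.75 with equal numbers (1.75 and 0.5). At ends it was 2, and 1 at -log10 q of at least 5, 0.75 at fold of at least 5 and 0.75 with equal numbers (1 and 0.5). These settings remove peaks. Other thresholds, windows of 500 or 5000 bp, flanks of 10 or 50 kb, placement by summit and an overlap of 50 bp moved these counts by no more than 1.5 times and differences by less than 1 SD between lists. Leaving out each list in turn gave counts of 1 to 1 at ends, 1 to 3 at an end or inside, 1 to 3 within 20 kb and 2 to 2 regions. With a list left out the rule is easier to meet for any gene, and no background was computed for it. Differences were 1.08 to 2.42 at ends, 3.17 to 6.5 at an end or inside and 4.58 to 8.58 within 20 kb, the lowest of each without 2-DG replicate 1. None of these 3 differences changed sign. Of single genes, Rbfox3 (a difference of 0) took 25 percentage points at -log10 q of at least 2 and -75 with equal numbers, and Homer1 (0) ran from -50 to 16.7. The region count and both single-region results, and the treatment of ties, were added after seeing the data. No paired analysis was possible because the labels give no replicate numbers shared by the groups. Depth is unknown, so no limit of detection can be set.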

Other observations

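Among 44 other activity-regulated genes, Nfil3, Gadd45a, Arl4d and Fbxo33 had peaks in at least 3 2-DG lists and 0 control lists in some window, and they are named after their values were seen. Plk3, Creb1 and Crtc1 also had peaks in at least 3 2-DG lists, with 1, 2 and 1 control lists. Creb1 is the gene of CREB itself, and whether activity induces each of the 44 genes was not analysed here. Nfil3, a leucine zipper transcription factor gene, had a peak at an end or inside in 4 of 4 2-DG lists against 0 of 4 in control, the 1 of these 44 genes to do so (background 1.09%). At an end of Gadd45a, a stress-response relative of Gadd45b, a peak was called in 3 of 4 2-DG lists against 0 of 4 in control, and within 20 kb in 3 of 4 against 1 of 4. Within 20 kb of Arl4d, a small GTPase gene, a peak was called in 4 of 4 against 0 of 4, and within 20 kb of Fbxo33, an F-box protein gene, in 3 of 4 against 0 of 4. With Nfil3, 2 of the 44 genes had a peak within 20 kb in 4 against 0 lists (background 1.51%).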
